A study of Mus musculus with 24 samples.

Results

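The Notch ligands Dll1, Dll4, Jag1 and Jag2, the receptors Notch1 and Notch2, and the transcriptional targets Hes1, Hey1, Hey2 and Heyl were followed in the dental mesenchyme of the mouse mandibular first molar. The 10 genes were chosen by name, as core members of the pathway, with earlier results of these data known. Each matched 1 of the 56748 gene identifiers in the deposited table of read counts, and all 10 passed the filter on low counts in every comparison. The clearest differences were in the ligands after culture. Dll1 was 4.51-fold higher in the cultured buccal part than in the cultured lingual part, and Dll4 was 3.27-fold lower there. The targets Hes1, Hey1 and Heyl rose in both cultured parts and Hey2 in the lingual part only. Of all genes tested, 35.4% were called in the lingual and 34.5% in the buccal culture. The buccal rise of Hey1 was lost on leaving out either of 2 single libraries. Notch1 and Notch2 were not called between any 2 groups compared.

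The study sequenced 24 libraries in 8 groups of 3 from embryos of ICR mice, and no genetic change is named for any group. Undivided mesenchyme was taken at the cap stage, embryonic day 13 (Cap_W), and at the bell stage, embryonic day 15 (Bell_W). Tooth germs of both stages were also cut into a lingual part, facing the tongue (Cap_L, Bell_L), and a buccal part, facing the cheek (Cap_B, Bell_B). Both parts of cap stage germs were in addition cultured in vitro for 2 days (Cap_L_2D, Cap_B_2D). In all groups the epithelium was removed with dispase II before RNA extraction. Embryos of several litters were used, and the sources do not say which embryos made up which library, and the methods speak of triplicates in one place and of biological duplicates in another. The p-values and errors over 3 libraries therefore measure the spread between libraries, which may be technical. The cultured parts were tested against the fresh cap parts, from which they differ in both culture and age, so these cannot be told apart there. The bell parts are fresh tissue of embryonic day 15, but the cultured parts were not tested against them. Each part was cultured without the other, and no undivided mesenchyme was cultured. Culture and separation from the other part therefore cannot be told apart either.

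Notch signalling passes between touching cells. A ligand of the Delta-like (Dll) or Jagged (Jag) family on one cell binds a Notch receptor on its neighbour, the receptor is cut by proteases, and its freed intracellular domain joins the DNA-binding protein RBPJ in the nucleus to switch on Hes and Hey genes, which encode transcriptional repressors. Fringe enzymes such as Lfng add sugars to the receptor and shift its response between Delta-like and Jagged ligands. In developing teeth the pathway is known in both epithelium and mesenchyme. Elsewhere in the embryo, Dll4, Notch1, Notch4, Hey1 and Hey2 are known from blood vessel endothelium, Heyl and Notch3 from the smooth muscle and pericytes of vessel walls, and Dll1 from differentiating muscle cells and neural progenitors.

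The libraries held between 20581720 and 39266497 read pairs assigned to genes. Levels are given as normalized CPM, counts scaled to 1000000 per library after 1 TMM scaling over all 24 libraries, and 3 counts came to between 0.0764 and 0.146 CPM. Members had between 19 counts (Hey2) and 7901 counts (Notch2) in a library. Differences are log2 fold changes with standard errors from the quasi-likelihood test of edgeR, and p-values were adjusted by the Benjamini-Hochberg method over all genes tested. Calls needed an adjusted p below 0.05 together with a log2 fold change above 0.5 in size, and only called genes are said to have risen or fallen. With 3 libraries a group, a comparison cannot reach an exact permutation p below 0.10. In bulk tissue, fewer cells of a type and less RNA per cell cannot be told apart. The 10 dental mesenchyme markers, among them Msx1, Pax9 and Barx1, summed to between 2100 and 4030 CPM in every group. Epithelial markers remained in all groups, and libraries Cap_W 1 and Bell_W 3 stood apart from their replicates. Differences between replicates, as a mean chi-square per gene, were between 1.37 and 12.2 for the parts and between 9.88 and 212 for the undivided tissue.

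Promoter stretches of Hes1 and Hey2 are shown because RBPJ, the factor through which Notch acts, is known to bind the letters TGGGAA, read as TTCCCA on the other strand. These letters were searched on both strands in the 250 bases before the start of 1 transcript a gene, the Ensembl canonical one, in GRCm39. They occurred in 3 of the 10 members, Hes1, Hey1 and Hey2, and not in Heyl, the ligands or the receptors. By comparison, 4951 of 21770 protein-coding genes, 22.7%, had them in a window of the same length. The longer form GTGGGAA, which contains the shorter, occurred in 5.5% of all windows and once each in the same 3 members. In the Hes1 window the first letters of its pair of matches lay 49 and 35 bases before that transcript start, and in Hey2 the match began 158 bases before it. Other transcripts start elsewhere, so the Hes1 stretch lies inside the outer bounds of the gene, in an intron of longer Hes1 transcripts, and the Hey2 transcript starts slightly outside the bounds in the deposited annotation given below. The stretches are printed 5′ to 3′ on the gene's own strand, with the matches in capitals, and carry no annotated exon. A match is a run of letters and not a measured binding site.
Hes1 (chr16:29884028-29884126, plus strand): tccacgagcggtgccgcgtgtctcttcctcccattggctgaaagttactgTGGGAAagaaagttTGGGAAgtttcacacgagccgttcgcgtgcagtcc
Hey2 (chr10:30718931-30719036, minus strand): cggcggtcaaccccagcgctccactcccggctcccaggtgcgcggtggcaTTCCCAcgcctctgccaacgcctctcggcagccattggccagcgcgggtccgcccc

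**Figure D1:**
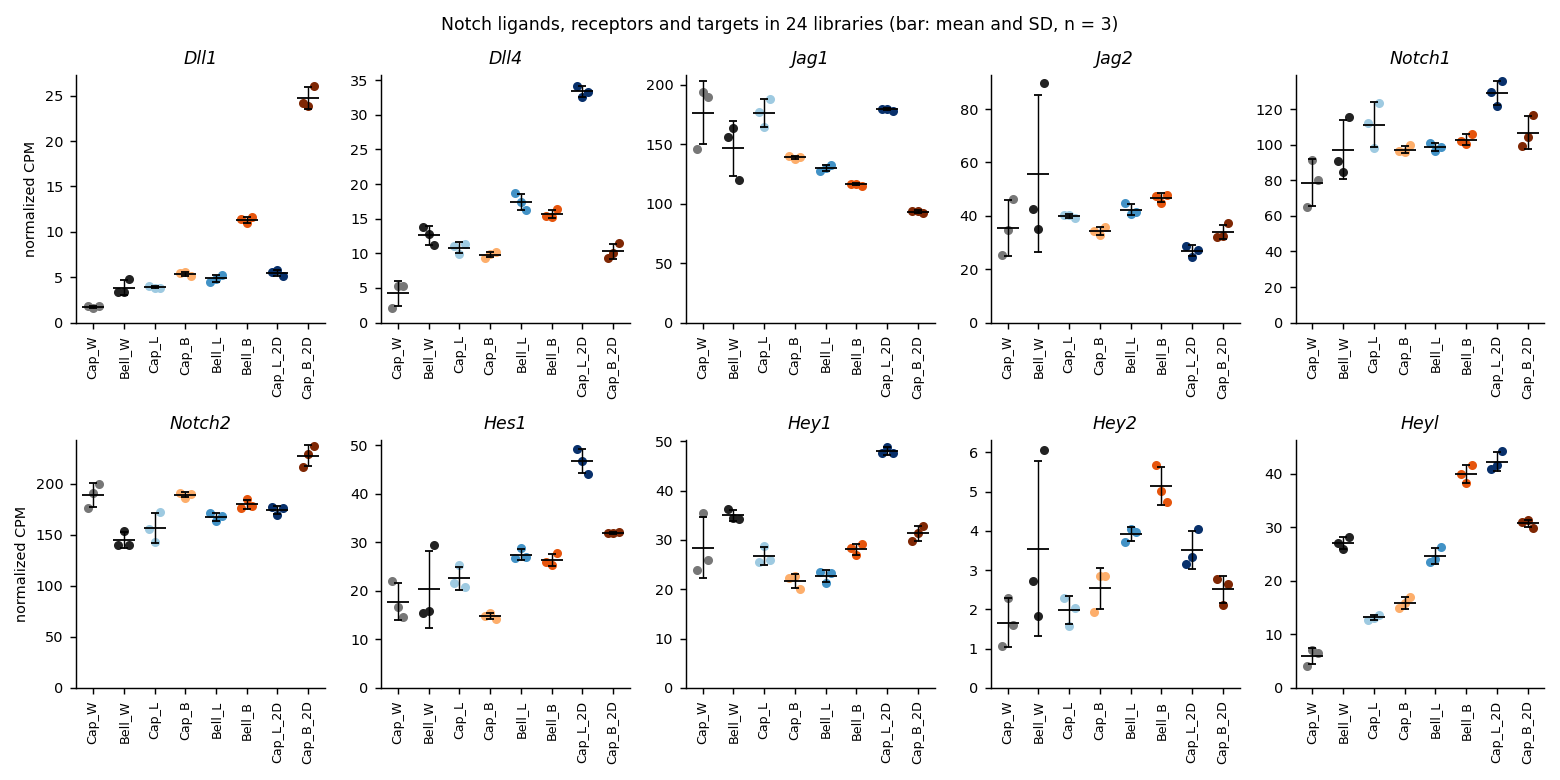
Normalized CPM (vertical axes, from 0) of the 10 members in every library of the 8 groups, with the mean and SD of 3 libraries. The Cap_B_2D libraries stand above all others for Dll1, between 23.9 and 26.1 CPM, and the Cap_L_2D libraries for Dll4, between 32.6 and 34.2 CPM.

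Dll1 (chromosome 17, 15587616 to 15597134) encodes a Delta-like ligand, and the study itself singled it out from these libraries, so its pattern is not independent evidence. Its levels were 4.01, 3.84 and 3.81 CPM in Cap_L and 5.42, 5.56 and 5.10 CPM in Cap_B. At the bell stage they were 4.53, 4.85 and 5.22 CPM in Bell_L and 11.4, 10.9 and 11.6 CPM in Bell_B. After culture they were 5.54, 5.76 and 5.14 CPM in Cap_L_2D and 24.2, 23.9 and 26.1 CPM in Cap_B_2D. The buccal libraries were above the lingual ones in all of these settings, with no overlap. The buccal excess was 0.49 ± 0.11 (log2, SE; adjusted p = 0.00135) at the cap stage, just under the limit on the fold. It was 1.22 ± 0.09 at the bell stage (adjusted p = 5.53e-15) and 2.17 ± 0.08 after culture (adjusted p = 3.22e-18). The excess grew from the cap to the bell stage by 0.72 ± 0.14 (interaction, adjusted p = 0.000118) and with culture by 1.68 ± 0.13 (adjusted p = 1.12e-11). In the buccal part alone Dll1 rose by 1.07 ± 0.09 to the bell stage (adjusted p = 2.21e-12) and by 2.19 ± 0.08 in culture (adjusted p = 1.42e-22). In the lingual part the differences were 0.34 ± 0.11 (adjusted p = 0.0129) and 0.50 ± 0.11 (adjusted p = 0.000235), both below the limit on the fold, the second by so little that RLE normalization, DESeq2, omitting the low-count filter or leaving the 100 most abundant genes out of the scaling made it a call. The cap stage side difference became a call without Cap_L 1 (0.51) or Cap_B 3 (0.52).

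Skeletal muscle markers moved in the same direction as Dll1 between the sides. The 12 genes of that list, Myod1, Myog and Myh3 among them, summed to between 16.5 and 17.9 CPM in Cap_L and between 218 and 237 CPM in Cap_B. They summed to between 123 and 130 CPM in Bell_L and between 976 and 999 CPM in Bell_B. In Cap_L_2D the sum was between 316 and 337 CPM, and in Cap_B_2D between 3930 and 4160 CPM. Of the list, 11 of 11 genes tested were higher on the buccal side at the cap stage, and 12 of 12 at the bell stage and after culture. Dll1 did not keep a fixed ratio to the sum: per 1000 CPM of the list it ran from 217 to 231 CPM in Cap_L and from 5.96 to 6.28 CPM in Cap_B_2D. Neuron markers summed to at most 99.8 CPM in Cap_B_2D and between 50.9 and 53.2 CPM in Cap_L_2D. The part of muscle cells or neurons in the Dll1 differences was not tested.

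Dll4 (chromosome 2, 119156265 to 119166443) encodes the Delta-like ligand of sprouting vessels. Its levels were 11.1, 9.88 and 11.4 CPM in Cap_L and 9.39, 9.92 and 10.2 CPM in Cap_B. They were 18.6, 17.4 and 16.3 CPM in Bell_L and 15.5, 15.3 and 16.4 CPM in Bell_B. In culture they were 34.2, 32.6 and 33.3 CPM in Cap_L_2D and 9.28, 10.0 and 11.5 CPM in Cap_B_2D. The sides overlapped at both fresh stages and lay far apart after culture. The side difference was -0.10 ± 0.09 at the cap stage (adjusted p = 0.352, 2 SE either way giving -0.27 to 0.07) and -0.15 ± 0.06 at the bell stage (adjusted p = 0.0753). After culture Dll4 was lower in the buccal part by -1.71 ± 0.07 (adjusted p = 4.77e-17), and this side difference departed from that of the fresh parts by -1.61 ± 0.11 (interaction, adjusted p = 6.59e-13). Dll4 rose by 1.64 ± 0.07 in the lingual part in culture (adjusted p = 1.12e-16), whereas in the buccal part the change was 0.04 ± 0.08 (adjusted p = 0.699, 2 SE either way giving -0.13 to 0.20). From the cap to the bell stage it rose on both sides, by 0.70 ± 0.07 in the lingual part (adjusted p = 1.57e-08) and by 0.67 ± 0.08 in the buccal part (adjusted p = 1.27e-08).

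Endothelial markers, among them Pecam1, Cdh5 and Kdr, did not follow Dll4 in the lingual culture. The 12 genes summed to between 607 and 617 CPM in Cap_L and between 505 and 514 CPM in Cap_L_2D, and 1 of them rose and 3 fell. In Cap_B they summed to between 542 and 549 CPM and in Cap_B_2D to between 212 and 221 CPM, and all 12 fell. Dll4 per 1000 CPM of this list was between 16.1 and 18.5 CPM in the 6 libraries of Cap_L and Cap_B, and between 21.0 and 23.6 CPM in those of Bell_L and Bell_B. It was between 64.6 and 67.2 CPM in Cap_L_2D and between 43.7 and 51.9 CPM in Cap_B_2D. In the fresh parts the ratio of Dll4 to endothelial markers overlapped between the sides at each stage, while in both cultured parts it was higher than in any fresh part. In the buccal culture the Dll4 difference of 0.04 went with a median of -1.30 over the endothelial markers. Bone markers, among them Runx2, Sp7 and Alpl, moved with Dll4 between the cultured sides, with sums between 971 and 992 CPM in Cap_L, 2390 and 2420 CPM in Cap_L_2D, 454 and 470 CPM in Cap_B, and 601 and 621 CPM in Cap_B_2D. Of the 8, 6 rose and 1 fell in the lingual culture, 6 rose and 2 fell in the buccal culture, and 7 were lower in Cap_B_2D than in Cap_L_2D (median -1.55). The fresh parts differed from this. From Cap_L to Bell_L, where Dll4 rose, 0 bone genes rose and 6 fell, to a sum between 734 and 756 CPM. From Cap_B to Bell_B 3 rose and 0 fell. Between the cap sides, where Dll4 was not called, 6 of 7 bone genes tested were lower in the buccal part (median -1.16). Over the 24 libraries, which share groups, Dll4 had a Pearson r of 0.82 with the bone sum, 0.81 with the macrophage sum and 0.54 with the endothelial sum. The part of endothelial, bone or macrophage cells in these differences was not tested.

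**Figure D2:**
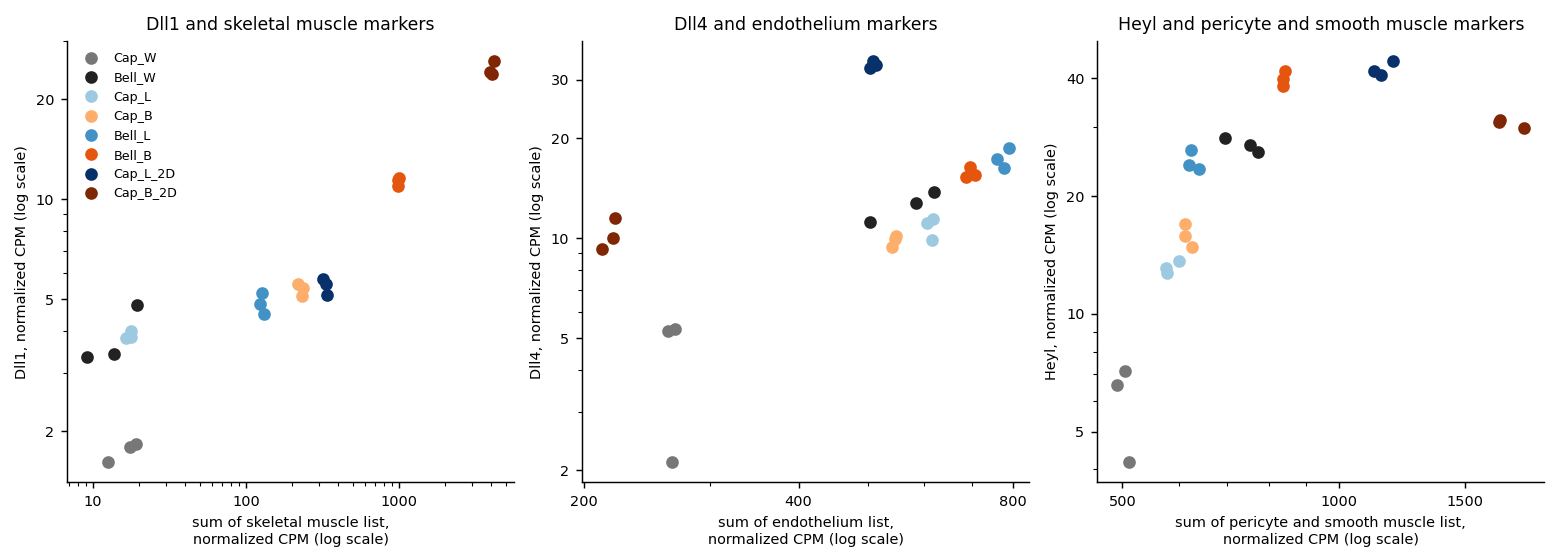
Normalized CPM of Dll1, Dll4 and Heyl (vertical, log scale) against the summed normalized CPM of the skeletal muscle, endothelium, and pericyte and smooth muscle lists (horizontal, log scale), 1 point per library and 1 colour per group. Dll1 and the muscle sum are both highest in Cap_B_2D, and the Cap_L_2D libraries lie above the others for Dll4 at an endothelial sum between 505 and 514 CPM.

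Jag1 (chromosome 2, 136923376 to 136958564), a Jagged ligand, had the highest level per kilobase of exon of the 4 ligands in every group, between 16.0 and 30.7 normalized CPM per kilobase in the group means. Its levels were 177, 164 and 187 CPM in Cap_L and 140, 138 and 139 CPM in Cap_B. After culture they were 179, 180 and 178 CPM in Cap_L_2D and 94.1, 93.9 and 91.8 CPM in Cap_B_2D. The cultured buccal libraries lay below all fresh buccal ones, while the cultured lingual libraries overlapped the fresh ones. Jag1 fell by 0.59 ± 0.03 on the log2 scale in the buccal part in culture (adjusted p = 8.28e-17), while the lingual difference was 0.03 ± 0.05 (adjusted p = 0.583, 2 SE either way giving -0.06 to 0.12). It was lower in Cap_B_2D than in Cap_L_2D by -0.95 ± 0.04 (adjusted p = 3.54e-17), and the side difference departed from that of the fresh cap parts by -0.63 ± 0.06 (adjusted p = 6.97e-10). At the bell stage it lay between 128 and 133 CPM in Bell_L and between 115 and 117 CPM in Bell_B. The buccal deficits at the cap stage (-0.32 ± 0.05, adjusted p = 4.86e-05) and the bell stage (-0.16 ± 0.03, adjusted p = 6.23e-05) were below the limit on the fold. Epithelial markers, among them Epcam, Cdh1 and Krt14, were lower beside Jag1 in the buccal culture, with sums between 37.0 and 38.2 CPM in Cap_B_2D against between 427 and 457 CPM in Cap_L_2D, and 11 of 12 called. At the cap stage they summed to between 366 and 385 CPM in Cap_B and between 483 and 531 CPM in Cap_L. The bell stage sums were higher, between 545 and 565 CPM in Bell_B and between 788 and 818 CPM in Bell_L. Jag1 was lower there than at the cap stage, by -0.27 ± 0.03 in the buccal part (adjusted p = 3.03e-08). In the lingual part this was -0.43 ± 0.05 (adjusted p = 2.6e-08), both below the limit on the fold. Over the 24 libraries Jag1 had a Pearson r of 0.51 with the epithelial sum and -0.92 with the Schwann and glia sum. The part of these cells in the Jag1 differences was not tested.

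Jag2 (chromosome 12, 112871439 to 112893396), the other Jagged ligand, was measured between 39.2 and 40.3 CPM in Cap_L and between 32.7 and 35.9 CPM in Cap_B. It was between 24.8 and 28.8 CPM in Cap_L_2D and between 32.2 and 37.2 CPM in Cap_B_2D. The side with the higher level thus changed with culture, from -0.19 ± 0.05 at the cap stage (adjusted p = 0.00627) to 0.33 ± 0.06 after culture (adjusted p = 8.73e-05), with an interaction of 0.52 ± 0.09 (adjusted p = 1.63e-05, but 0.279 with all 24 libraries in 1 fit). Jag2 fell by 0.56 ± 0.06 in the lingual part in culture (adjusted p = 5.21e-09), against -0.04 ± 0.05 in the buccal part (adjusted p = 0.563, 2 SE either way giving -0.15 to 0.07). Between Bell_L (40.6 to 44.7 CPM) and Bell_B (44.9 to 48.0 CPM) the difference was 0.15 ± 0.04 (adjusted p = 0.0077), in the other direction from the cap stage. The interaction of side with stage was 0.33 ± 0.07 (adjusted p = 0.000419, but 0.556 with all 24 libraries in 1 fit).

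Per kilobase, the make-up of the ligand RNA differed between the groups. Jag1 took on average 76.2% of the summed level of the 4 ligands in Cap_L, 73.2% in Cap_B, 69.0% in Cap_L_2D and 54.5% in Cap_B_2D. Dll1 took 2.33% in Cap_L, 3.90% in Cap_B, 2.92% in Cap_L_2D and 19.9% in Cap_B_2D. Dll4 took 7.05% in Cap_L, 7.83% in Cap_B, 19.4% in Cap_L_2D and 9.05% in Cap_B_2D. The Delta-like ligands together took a larger share in both cultured parts than in their fresh counterparts, mainly Dll4 on the lingual and Dll1 on the buccal side. In the bell parts Jag1 took 65.6% in Bell_L and 59.7% in Bell_B, Dll4 13.3% and 12.2%, and Dll1 3.38% and 8.03%. The Dll1 and Dll4 shares were thus also larger in the bell parts than in the fresh cap parts of the same side. The total of the 4 ligands lay between 44.2 and 45.1 normalized CPM per kilobase in Cap_L_2D, and between 28.9 and 30.3 in Cap_B_2D.

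**Figure D3:**
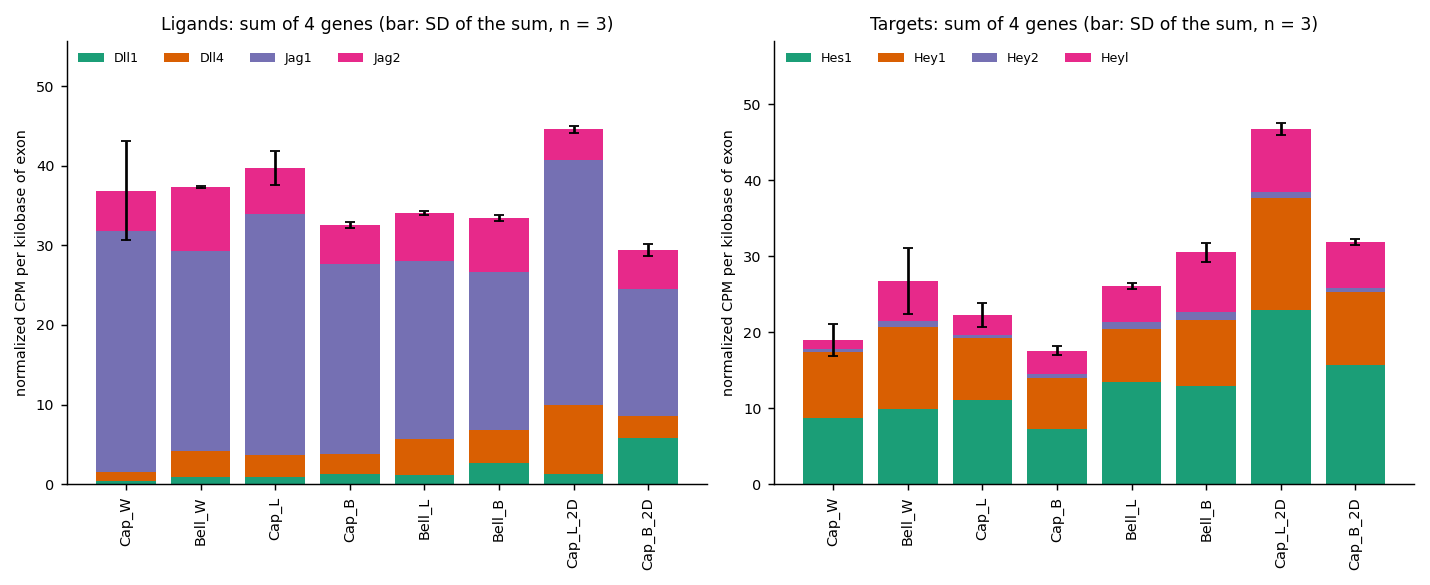
Mean normalized CPM per kilobase of exon (vertical axes, from 0) of the 4 ligands and the 4 targets, stacked for each group, with the SD of the sum over 3 libraries. Jag1 takes the widest band of the ligands in every group, and the targets sum highest in Cap_L_2D, between 45.8 and 47.4.

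The receptors were not called in any comparison of 2 groups. Notch1 (chromosome 2, 26347915 to 26406675) ran from 64.7 to 136 CPM over all 24 libraries and Notch2 (chromosome 3, 97920843 to 98057677) from 139.7 to 237 CPM. Notch2 was the more abundant per kilobase in every group, with group means between 13.4 and 21.1 against between 5.53 and 9.06 for Notch1. Notch2 was between 142.6 and 172 CPM in Cap_L and between 186 and 191 CPM in Cap_B, a difference of 0.30 ± 0.06 (adjusted p = 0.000378). After culture it was between 169.7 and 177 CPM in Cap_L_2D and between 217 and 237 CPM in Cap_B_2D, a difference of 0.38 ± 0.04 (adjusted p = 8.78e-09). Notch1 was on the other side: between 122 and 136 CPM in Cap_L_2D and between 99.2 and 117 CPM in Cap_B_2D, a difference of -0.28 ± 0.05 (adjusted p = 4.04e-05). All of these are below the limit on the fold. The interactions of side with stage passed the test for Notch1 (0.23 ± 0.08, adjusted p = 0.0233) and Notch2 (-0.20 ± 0.07, adjusted p = 0.0215), but the first was lost without Cap_L 3 (0.16), Bell_L 2 (0.21) or Bell_B 3 (0.20). The second was lost without Cap_L 2 (-0.12), Cap_B 1 (-0.18), Cap_B 3 (-0.19), Bell_L 1 (-0.19) or Bell_B 1 (-0.19). Both were also lost with all 24 libraries in 1 fit, with adjusted p = 0.35 for Notch1 and adjusted p = 0.258 for Notch2. Part of the exon sequence of Notch1, 9.8%, Notch2, 5.02%, and Dll4, 5.56%, overlaps other annotated genes, and read pairs there were left out of the counts.

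Hes1 (chromosome 16, 29883202 to 29886614) encodes a repressor that restrains differentiation in many progenitor cells. Its levels were 21.7, 25.2 and 20.7 CPM in Cap_L and 14.9, 15.5 and 14.3 CPM in Cap_B. In culture they rose to 49.2, 46.8 and 44.1 CPM in Cap_L_2D and 31.8, 31.9 and 32.1 CPM in Cap_B_2D. At the bell stage they were 26.7, 28.7 and 26.9 CPM in Bell_L and 25.95, 25.4 and 27.8 CPM in Bell_B. The lingual libraries were above the buccal ones at the cap stage and after culture, and overlapped them at the bell stage. Hes1 was lower in Cap_B than in Cap_L by -0.58 ± 0.08 (adjusted p = 6.1e-06), a call lost without Cap_L 2, where the value was -0.49. The bell stage side difference was -0.05 ± 0.05 (adjusted p = 0.473, 2 SE either way giving -0.16 to 0.05), and the interaction with stage was 0.52 ± 0.09 (adjusted p = 6.83e-05, but 0.163 with all 24 libraries in 1 fit). Hes1 rose by 0.82 ± 0.06 from Cap_B to Bell_B (adjusted p = 1.71e-13), against 0.29 ± 0.07 from Cap_L to Bell_L (adjusted p = 0.00104). In culture it rose by 1.05 ± 0.06 in the lingual part (adjusted p = 2.93e-13) and by 1.08 ± 0.06 in the buccal part (adjusted p = 1.73e-17), and the difference between these rises was 0.03 ± 0.09 (adjusted p = 0.871, 2 SE either way giving -0.16 to 0.21). The lingual excess of Hes1 in culture was -0.55 ± 0.05, buccal over lingual (adjusted p = 7.39e-10).

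Hey1 (chromosome 3, 8728419 to 8732316) encodes a related repressor. Its levels were 25.5, 28.8 and 25.8 CPM in Cap_L, and 22.2, 22.7 and 20.1 CPM in Cap_B. In culture they were 47.5, 48.9 and 47.6 CPM in Cap_L_2D and 29.9, 31.5 and 32.9 CPM in Cap_B_2D. Hey1 rose in the lingual part by 0.85 ± 0.06 (adjusted p = 1.22e-12) and in the buccal part by 0.52 ± 0.06 (adjusted p = 1.41e-09). The buccal call was lost without Cap_B 3 (0.46) or without Cap_B_2D 3 (0.48), and the rises differed by -0.34 ± 0.08 (interaction, adjusted p = 0.00203, but 0.147 with all 24 libraries in 1 fit). The cultured sides differed by -0.62 ± 0.05 (adjusted p = 5.92e-11), lingual higher. At the bell stage the order was the other one, with 23.4, 21.4 and 23.4 CPM in Bell_L and 28.4, 26.9 and 29.1 CPM in Bell_B. The side difference went from -0.28 ± 0.07 at the cap stage (adjusted p = 0.00211) to 0.31 ± 0.06 at the bell stage (adjusted p = 1.2e-05), each below the limit on the fold, and the interaction was 0.59 ± 0.09 (adjusted p = 3.8e-06).

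Hey2 (chromosome 10, 30708355 to 30718797) was the least abundant member per kilobase, with group means between 0.361 and 1.12 and from 19 to 188 counts per library. It rose to the bell stage by 1.02 ± 0.15 in the lingual part (adjusted p = 3.73e-06), from between 1.59 and 2.29 CPM to between 3.73 and 4.05 CPM. In the buccal part it rose by 1.00 ± 0.14 (adjusted p = 3.63e-07), from between 1.94 and 2.85 CPM to between 4.73 and 5.67 CPM. The rises on the 2 sides differed by -0.03 ± 0.21 (adjusted p = 0.923, 2 SE either way giving -0.45 to 0.38). In culture it rose in the lingual part by 0.88 ± 0.15 (adjusted p = 1.75e-05), to between 3.16 and 4.06 CPM, and was between 2.12 and 2.77 CPM in Cap_B_2D, a difference from Cap_B of -0.03 ± 0.16 (adjusted p = 0.868). The interaction of side with culture was -0.92 ± 0.24 (adjusted p = 0.00269, but 0.2 with all 24 libraries in 1 fit). The side difference after culture, -0.50 ± 0.14 (adjusted p = 0.00455), lay at the limit on the fold and became a call without Cap_L_2D 1 (-0.56), Cap_L_2D 2 (-0.54), Cap_B_2D 1 (-0.57) or Cap_B_2D 3 (-0.53), as did that at the cap stage, 0.42 ± 0.19 (adjusted p = 0.0799), without Cap_B 1 (0.57).

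Heyl (chromosome 4, 123127349 to 123143668), the member of the Hey family known from vessel smooth muscle, was the target with the widest range, from 4.17 to 44.3 CPM. Its levels were 12.7, 13.1 and 13.7 CPM in Cap_L and 14.9, 15.8 and 16.9 CPM in Cap_B. At the bell stage they were 23.5, 24.1 and 26.2 CPM in Bell_L and 39.9, 38.2 and 41.7 CPM in Bell_B. In culture they were 40.8, 41.7 and 44.3 CPM in Cap_L_2D and 30.9, 31.3 and 29.9 CPM in Cap_B_2D. No group of fresh or cultured parts overlapped its counterpart from the other side, but the higher side was buccal at both fresh stages and lingual after culture. Heyl rose to the bell stage by 0.91 ± 0.07 in the lingual part (adjusted p = 1.5e-11) and by 1.32 ± 0.06 in the buccal part (adjusted p = 1.91e-19). In culture it rose by 1.69 ± 0.06 in the lingual part (adjusted p = 7.94e-18) and by 0.93 ± 0.06 in the buccal part (adjusted p = 1.48e-15). The buccal excess at the bell stage was 0.70 ± 0.05 (adjusted p = 8.08e-15), larger than at the cap stage by 0.40 ± 0.09 (interaction, adjusted p = 0.000915, but 0.0579 with all 24 libraries in 1 fit). The interaction of side with culture was -0.77 ± 0.09 (adjusted p = 2.1e-08), and the cultured sides differed by -0.47 ± 0.05 (adjusted p = 1.27e-08), below the limit on the fold.

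The 10 pericyte and smooth muscle markers, Rgs5, Pdgfrb and Acta2 among them, had higher sums in the bell and cultured parts. They summed to between 575 and 626 CPM in the cap parts and to between 619 and 842 CPM in the bell parts. In Cap_L_2D the sum was between 1120 and 1190 CPM and in Cap_B_2D between 1670 and 1810 CPM. Of the 10, 7 rose and 1 fell in the lingual culture, and 3 rose and 1 fell in the buccal culture. Between the cultured sides the sum was higher in the buccal part, but 6 genes were lower and 3 higher there, with a median log2 fold change of -0.63. Heyl per 1000 CPM of the list was between 22.0 and 27.8 CPM in the cap parts, 36.7 and 49.5 CPM in the bell parts, 35.6 and 37.3 CPM in Cap_L_2D and 16.5 and 18.6 CPM in Cap_B_2D. Macrophage markers were between 85.8 and 95.4 CPM in the cap parts and between 179 and 348 CPM in the bell and cultured parts, and erythroid markers went from at least 2870 CPM in the cap parts to at most 40.2 CPM in both cultured parts. The bone sum given beside Dll4 was also highest in Cap_L_2D. Over the 24 libraries it had a Pearson r of 0.72 with Hes1, 0.67 with Hey1, 0.23 with Hey2 and 0.55 with Heyl. The macrophage sum had an r of 0.63, 0.33, 0.67 and 0.86 with these genes in the same order. For the pericyte and smooth muscle sum the values were 0.66, 0.54, 0.24 and 0.70. Heyl also had an r of 0.62 with the skeletal muscle sum and -0.86 with the dental mesenchyme sum. The part of these cells in the target levels was not tested.

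**Figure D4:**
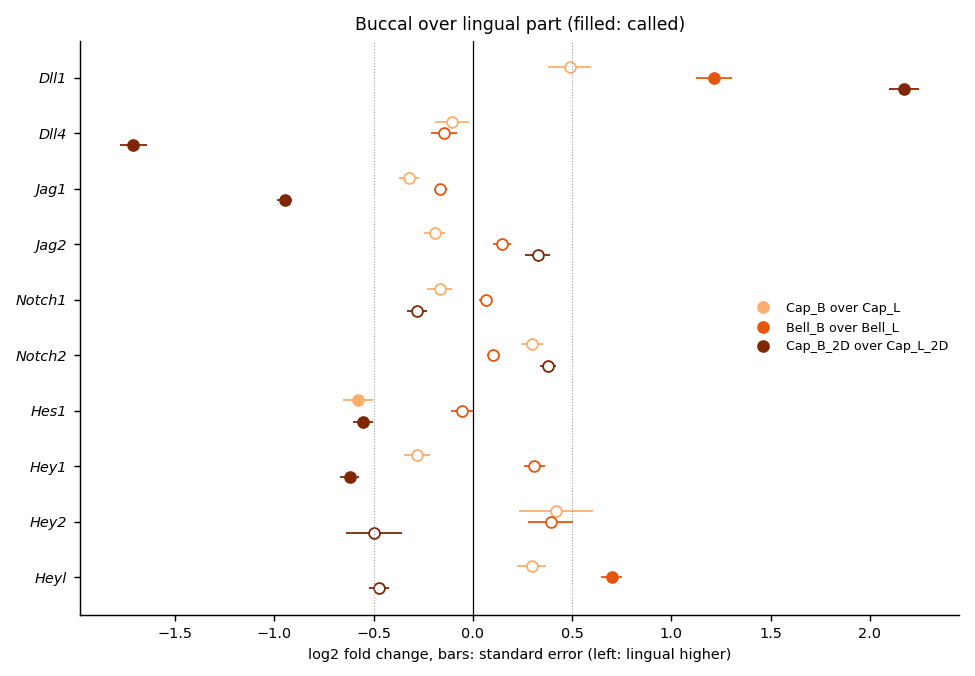
Log2 fold change of each member, buccal over lingual (horizontal, bars are standard errors), at the cap stage, at the bell stage and after culture, with filled points for called members and dotted lines at the limit of 0.5 in either direction. Dll1 moves to the right, from 0.49 to 1.22 and 2.17, and Dll4 and Jag1 lie at -1.71 and -0.95 after culture.

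Read against all genes, the members were called about as often as other genes between the fresh sides. At the cap stage 1 of the 10 was called, Hes1, where 17.5% of all genes tested were, and at the bell stage 2 were called, Dll1 and Heyl, where 12.9% of genes were. After culture 5 were called between the sides, Dll1 higher and Dll4, Jag1, Hes1 and Hey1 lower in the buccal part, where 25.1% of genes were. The 3 libraries of each side did not overlap for 7 members at the cap stage, 7 at the bell stage and 10 after culture, where 52.4%, 45.5% and 59.1% of all genes did not. From the cap to the bell stage 3 members rose in the lingual part (Dll4, Hey2, Heyl), where 14.2% of genes rose and 20% were called in either direction. In the buccal part 5 rose (Dll1, Dll4, Hes1, Hey2, Heyl), where 12% of genes rose and 18.7% were called in either direction, and no member fell on either side. In culture 5 rose and 1 fell in the lingual part, where 35.4% of genes were called, and 4 rose and 1 fell in the buccal part, where 34.5% were. The median log2 fold change of the members was 0.67 in the lingual culture, against -0.03 for all genes, and 0.55 from Cap_B to Bell_B, against 0.01 for all genes. These were the largest. It was 0.18 in the buccal culture, 0.20 from Cap_L to Bell_L and 0.46 from Cap_W to Bell_W. Buccal over lingual, it was -0.14 at the cap stage, 0.13 at the bell stage and -0.48 after culture. For the interactions, called at an adjusted p under 0.05 with no limit on the fold, 7 members were called with stage, where 32.5% of genes were, and 7 with culture, where 35.5% were. With all 24 libraries in 1 fit, 2 and 4 members were called. The comparisons of stage and of culture within a side share their cap libraries.

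**Figure D5:**
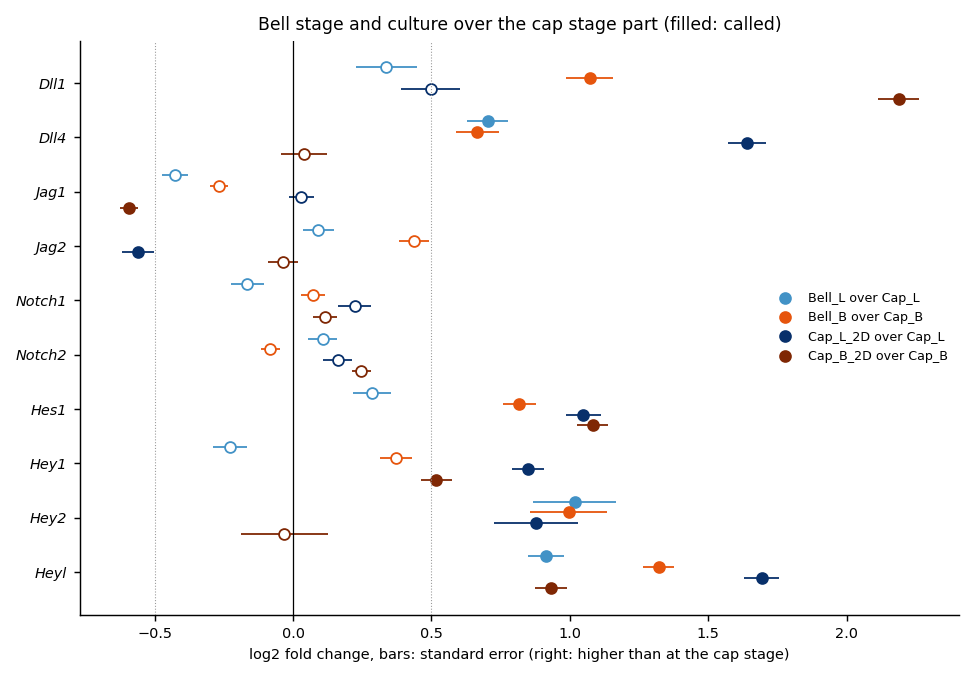
Log2 fold change of each member over the cap stage part of the same side (horizontal, bars are standard errors), for the bell stage and for 2 days of culture, with filled points for called members and dotted lines at the limit of 0.5 in either direction. Heyl is called in all of these comparisons, between 0.91 and 1.69, and Notch1 and Notch2 in none.

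In the undivided mesenchyme 3 members rose from the cap to the bell stage, where 10.3% of genes rose and 14.5% were called in either direction. Notch2 was lower in Bell_W than in Cap_W by -0.40 ± 0.11 (adjusted p = 0.0412), below the limit on the fold. Jag1 (-0.29 ± 0.17, adjusted p = 0.307) and Hey1 (0.28 ± 0.17, adjusted p = 0.312) did not pass the test. Heyl was at 4.17, 7.14 and 6.58 CPM in Cap_W and at 26.99, 25.98 and 28.2 CPM in Bell_W, a rise of 2.15 ± 0.22 (adjusted p = 0.000999). Dll4 was at 2.11, 5.27 and 5.32 CPM and at 13.8, 12.8 and 11.2 CPM, a rise of 1.54 ± 0.34 (adjusted p = 0.0215), lost without Bell_W 1 (adjusted p = 0.0615) or Bell_W 2 (adjusted p = 0.0752), with log2 fold changes of 1.5002 and 1.53. Dll1 was at 1.83, 1.61 and 1.79 CPM and at 3.42, 3.35 and 4.81 CPM, a rise of 1.13 ± 0.26 (adjusted p = 0.0255), lost on leaving out any 1 library other than Cap_W 1 (0.94 to 1.246, adjusted p from 0.0531 to 0.0955). Muscle markers were low in this tissue, between 12.6 and 19.2 CPM in Cap_W and between 9.2 and 19.3 CPM in Bell_W, so the rise of Dll1 there went without a rise in the muscle sum. In that sum Bell_W lay below both bell parts (123 to 130 CPM in Bell_L, 976 to 999 CPM in Bell_B). Dll1 and Heyl were lower in Cap_W than in both Cap_L and Cap_B. The undivided libraries thus cannot be read as the 2 parts combined, and the reason was not tested. Endothelial markers rose with Dll4, from between 262 and 268 CPM to between 504 and 620 CPM, and 11 of the 12 were called. Library Bell_W 3 had epithelial markers at 2170 CPM, against 513 CPM in the lowest Bell_W library, and held the highest Bell_W levels of Jag2 (89.7 CPM), Hes1 (29.5 CPM), Hey2 (6.07 CPM), Notch1 (116 CPM), Dll1 (4.81 CPM) and Heyl (28.2 CPM). Its neuron markers summed to 151.9 CPM, against 22.3 and 25.1 CPM in the other Bell_W libraries, and its Schwann and glia markers to 91.0 CPM, against 42.6 and 36.1 CPM. The differences of 4 of these genes, 0.64 ± 0.38 for Jag2 (adjusted p = 0.305), 0.19 ± 0.28 for Hes1 (adjusted p = 0.701), 1.07 ± 0.51 for Hey2 (adjusted p = 0.207) and 0.29 ± 0.18 for Notch1 (adjusted p = 0.323), did not pass the test, and the part of epithelium, neurons or glia in any of these levels was not tested. With Cap_W 1 and Bell_W 3 left out, a choice made after their values were seen, Heyl rose by 1.94, Dll4 by 1.32 and Dll1 by 0.99.

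Of 40 further genes of the pathway, of which 37 or 38 were tested in each comparison of 2 groups, 6 were called between the sides at the cap stage (16.2% of those tested, against 17.5% of all genes), 7 at the bell stage (18.4% against 12.9%) and 11 after culture (28.9% against 25.1%). From the cap to the bell stage 4 rose and 1 fell in the lingual part (13.2% against 20%), and 5 rose and 2 fell in the buccal part (18.4% against 18.7%). In culture 7 rose and 2 fell in the lingual part (23.7% against 35.4%), and 8 rose and 6 fell in the buccal part (36.8% against 34.5%). In the undivided tissue 5 rose and 3 fell (21.6% against 14.5%). Their median log2 fold changes lay between -0.04 and 0.08 in these comparisons, close to those of all genes. For the interactions, with no limit on the fold, 13 of 38 tested were called with stage (34.2% against 32.5%). With culture 21 of 39 were called (53.8% against 35.5%), 6 shifted toward the buccal and 15 toward the lingual part. These counts were not repeated with all 24 libraries in 1 fit.

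Lfng, the Fringe enzyme, was called in all 8 comparisons of 2 groups, higher on the buccal side, at the bell stage and in culture. It was at 6.55, 6.21 and 5.51 CPM in Cap_L and at 10.4, 10.1 and 10.4 CPM in Cap_B, and at 11.4, 10.1 and 11.8 CPM in Cap_L_2D and 43.6, 45.4 and 44.6 CPM in Cap_B_2D. The buccal excess was 0.78 ± 0.09 at the cap stage (adjusted p = 1.14e-06) and 1.99 ± 0.06 after culture (adjusted p = 1.86e-19), and differed between these settings by 1.204 ± 0.11 (interaction, adjusted p = 2.47e-10). Its relative Mfng was lower in Cap_B_2D (4.09 to 4.94 CPM) than in Cap_L_2D (8.56 to 10.1 CPM), by -1.09 ± 0.10 (adjusted p = 9.45e-10), and Rfng was called in no comparison. The ligand Dll3 and the targets Hes5 and Hes7 were below 1 CPM in every library, and none of them was called between 2 groups. Between the cap sides none of them passed the filter on low counts, so they were not tested there. Dll3, with 2 to 16 counts in the cap and cultured parts, was called for the interaction of side with culture, toward the lingual part.

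Among the other receptors, Notch4, known from endothelium, was between 48.8 and 53.3 CPM in Cap_L_2D and between 17.6 and 20.2 CPM in Cap_B_2D, a difference of -1.45 ± 0.06 (adjusted p = 3.83e-17). In culture it rose by 0.78 ± 0.05 on the lingual side (adjusted p = 2.96e-12) and fell by 0.75 ± 0.06 on the buccal side (adjusted p = 3.41e-13). Among the comparisons of 2 groups, Notch3 was called only between the bell stage sides, with 144.7 to 159.8 CPM in Bell_L, 207 to 226 CPM in Bell_B and a difference of 0.52 ± 0.04 (adjusted p = 5.3e-16). The feedback inhibitor Nrarp, at 3.62 CPM or less in every library and with 79.4% of its exon sequence overlapping another gene, was lower in Cap_B_2D than in Cap_L_2D by -1.59 ± 0.19 (adjusted p = 9.88e-08). In culture Nrarp fell in the buccal part, from a mean of 1.55 CPM in Cap_B to 0.786 CPM in Cap_B_2D, and was not called in the lingual part. Hes6, a Hes relative known to promote differentiation, was between 17.4 and 18.6 CPM in Cap_L_2D and between 55.6 and 61.2 CPM in Cap_B_2D, a difference of 1.67 ± 0.05 (adjusted p = 7.16e-19). The non-canonical ligand Dlk1 was lower on the buccal side at the cap stage by -1.52 ± 0.06 (adjusted p = 9.19e-14), at the bell stage by -0.53 ± 0.03 (adjusted p = 6.86e-17) and after culture by -1.28 ± 0.04 (adjusted p = 2.17e-18). The ligand-like Dner and the ubiquitin ligase Dtx4 were called in 7 comparisons each, Dlk2 in 4, and Eogt and Dtx1 in 3 each.

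Over the 24 libraries, the genes whose log2 levels were most like those of Dll1 were Unc45b, a myosin chaperone of striated muscle (Pearson r = 0.99), Map2k1 (r = 0.98) and Fbxo17 (r = 0.98). Those most like Dll4 were Adam12 (r = 0.95), Adamts14 (r = 0.95) and Stat5b (r = 0.94). Those most like Heyl were Kazald1 (r = 0.97) and the basement membrane collagens Col4a1 (r = 0.97) and Col4a2 (r = 0.96). For Hes1 they were Tpm3 (r = 0.96), Tacc2 (r = 0.95) and Cst3 (r = 0.95). These are descriptions from a search of 12277 genes, over libraries that share groups.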

How the data were processed

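The authors deposited raw counts of read pairs per gene, which featureCounts 2.0.0 made over exons of an Ensembl annotation of GRCm39, without regard to strand with pairs that mapped to several places or genes left out. The submitters' processing notes name Bowtie 1.2.3 and Trimmomatic 0.39, the methods of the paper other tools, and the labels and methods also name different library kits. Libraries were grouped by their labels. Symbols came from the Ensembl annotation by identifier, and 56017 of the 56748 genes had one. Counts were normalized by TMM, filtered with filterByExpr and tested with edgeR 4.0.16 in R 4.3.3 in fits of 6 libraries, 9 for stage or culture within a side, and 12 for interactions, without a replicate block. Symbols of other pathway genes are given where called in at least 3 of 8 comparisons or where they are a ligand, receptor, Fringe, Hes or Nrarp gene. The genes most like a member are the 3 with the highest Pearson r, members and pathway genes left out, at an average log2 CPM of at least 2 with 0.5 added. Members and lists were chosen with earlier results of these data known. Per kilobase values divide by the deposited exon length. Floors of 3 counts cover counting error only, while the ranges of 2 SE come from the edgeR fit and include the spread between libraries. The steps were tested on simulated data. Alternatives were RLE, DESeq2 1.42.0, other filters, thresholds and fits, a replicate block and single libraries left out. Results for 2 items are not reported here.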

Additional observations from a re-analysis of the deposited data

Results flagged for a closer look

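These differences between the sides changed with stage or with culture by a test of the change itself, the interaction in edgeR's quasi-likelihood fit over 12 libraries with adjustment over all genes. A positive value is a shift toward the buccal part. With stage, cap to bell, the side difference of Dll1 shifted by 0.72 (adjusted p = 0.000118), of Jag2 by 0.33 (adjusted p = 0.000419), of Notch1 by 0.23 (adjusted p = 0.0233), of Notch2 by -0.20 (adjusted p = 0.0215), of Hes1 by 0.52 (adjusted p = 6.83e-05), of Hey1 by 0.59 (adjusted p = 3.8e-06) and of Heyl by 0.40 (adjusted p = 0.000915). With culture, that of Dll1 shifted by 1.68 (adjusted p = 1.12e-11), of Dll4 by -1.61 (adjusted p = 6.59e-13), of Jag1 by -0.63 (adjusted p = 6.97e-10), of Jag2 by 0.52 (adjusted p = 1.63e-05), of Hey1 by -0.34 (adjusted p = 0.00203), of Hey2 by -0.92 (adjusted p = 0.00269) and of Heyl by -0.77 (adjusted p = 2.1e-08). With all 24 libraries in 1 fit, 8 of these 14 were no longer called: with stage Jag2 (adjusted p = 0.556), Notch1 (0.35), Notch2 (0.258), Hes1 (0.163) and Heyl (0.0579), and with culture Jag2 (0.279), Hey1 (0.147) and Hey2 (0.2).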

How the results depend on the processing

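Of 710 member results recomputed under alternative settings, 686 kept their direction and side of the threshold, as did 676 of 720 with 1 library left out, and no result that reversed had an adjusted p under 0.05 at first. With no limit on the fold, 8 members were called between the cap sides, 7 between the bell sides, 10 between the cultured sides, and 8 with stage on each side, and of all genes 8746, 7846, 11569, 10725 and 10557, with 14126 in the lingual and 14768 in the buccal culture. With all 24 libraries in 1 fit, 5 members and 5887 genes were called with stage in the undivided tissue, 2 members and 2581 genes for side by stage, and 4 members and 4048 genes for side by culture. That fit left the side by stage calls of Dll1 and Hey1, and the side by culture calls of Dll1, Dll4, Jag1 and Heyl. Leaving out 1 library gave 0 to 2 members between the cap sides, and 1 to 3 members and 1758 to 3057 genes with stage in the undivided tissue. Without the filter, Hey2 reversed to 0.0016 in the buccal culture and 0.0024 for side by stage, which was 0.0139 with all libraries in 1 fit. Without Cap_W 1 and Bell_W 3, added after seeing the data, Jag2 reversed to -0.0588 and Hes1 to -0.003 in the undivided tissue. With 1 library left out, uncalled results that crossed 0 ran from -0.19 to 0.38 for Hes1 in the undivided tissue, from -0.0218 to 0.0669 for Jag1 in the lingual culture, in the buccal culture from -0.051 to 0.12 for Dll4, -0.11 to 0.0051 for Jag2 and -0.19 to 0.0677 for Hey2, for side by stage from -0.10 to 0.0326 for Dll4 and -0.17 to 0.14 for Hey2, and for side by culture from -0.0724 to 0.0849 for Hes1. The causes were not tested. Same-numbered libraries did not deviate together (24 correlations between -0.09 and 0.09). With the replicate number as a block, 1 of 100 member results changed its call, Dll1 in the undivided tissue (1.11, adjusted p = 0.059). The counts of members called with the block were 1, 2 and 5 between the cap, bell and cultured sides. Hey2, with 19 to 188 counts per library, has the widest errors.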
